A study of Mus musculus with 2 samples.

Results

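The genes described here are 9 genes of the primitive red cell lineage, read in whole limb buds of mouse embryos at E10.5: the embryonic globins Hba-x, Hbb-bh1 and Hbb-y, and Alas2, Slc4a1, Klf1, Gata1, Rhag and Hemgn. They were chosen by gene symbol, and all 15 probe sets annotated to 1 of these symbols alone were taken, of 45037 probe sets that were not controls. The study set wild-type limb buds against limb buds of Bhlha9 knockout embryos, both of the C57BL/6 strain, with 1 Affymetrix mouse expression array for each. The gene removed in the knockout codes for a transcription factor of the basic helix-loop-helix class. The labels used here do not say how many embryos were pooled, which part of Bhlha9 was deleted or whether blood was rinsed from the limb buds.

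Primitive red cells arise in the yolk sac and enter the circulation as large nucleated cells, so blood vessels of any embryonic tissue carry them at this stage. They contain embryonic haemoglobins, whose chains include the zeta chain of Hba-x and the beta-like chains of Hbb-bh1 and Hbb-y. GATA1 binds GATA motifs and KLF1 binds CACCC boxes in the promoters and enhancers of red cell genes, and both factors act in red cell formation. The definitive red cells that follow are made in the fetal liver and contain adult globins.

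The promoters of 4 of these genes are shown because Gata1 and Klf1 were measured on the same arrays as the genes they are known to act on. Each line gives the 250 bases before the RefSeq start in GRCm38.p6, 5′ to 3′ on the strand of the gene. Capitals mark 3 motifs, each on either strand. The first is AGATAA and the next, which differs from it in the first base, is TGATAA, and both are forms of the GATA motif. The third is the CACCC box, which reads as its reverse complement where it lies on the other strand. Hba-x lies at chr11:32276350-32276599 on the plus strand, Hbb-y at chr7:103853208-103853457 on the minus strand, Alas2 at chrX:150547167-150547416 on the plus strand and Klf1 at chr8:84901732-84901981 on the plus strand.
Hba-x: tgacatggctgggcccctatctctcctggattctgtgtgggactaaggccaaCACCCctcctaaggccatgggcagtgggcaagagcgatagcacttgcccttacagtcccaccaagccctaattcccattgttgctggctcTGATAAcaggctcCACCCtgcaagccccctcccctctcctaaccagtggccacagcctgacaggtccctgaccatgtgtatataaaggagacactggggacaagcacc
Hbb-y: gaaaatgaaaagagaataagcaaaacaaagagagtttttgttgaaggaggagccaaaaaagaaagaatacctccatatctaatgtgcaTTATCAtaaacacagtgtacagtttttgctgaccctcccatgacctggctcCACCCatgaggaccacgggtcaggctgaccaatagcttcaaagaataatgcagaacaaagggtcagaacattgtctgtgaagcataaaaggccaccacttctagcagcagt
Alas2: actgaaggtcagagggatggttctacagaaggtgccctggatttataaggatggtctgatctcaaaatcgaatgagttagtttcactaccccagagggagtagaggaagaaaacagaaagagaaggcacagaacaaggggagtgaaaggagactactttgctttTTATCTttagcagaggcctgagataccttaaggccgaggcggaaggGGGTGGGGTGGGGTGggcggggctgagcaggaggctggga
Klf1: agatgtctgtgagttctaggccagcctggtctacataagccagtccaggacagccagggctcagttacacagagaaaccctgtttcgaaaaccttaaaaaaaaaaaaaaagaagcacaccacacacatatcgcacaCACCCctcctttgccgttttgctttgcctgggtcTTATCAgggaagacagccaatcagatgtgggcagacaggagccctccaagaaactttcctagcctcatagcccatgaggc

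RefSeq promoters were at hand for 7 of the 9 genes, all but Hbb-bh1 and Slc4a1. At least 1 of the GATA forms was found in 6 of the 7, and in 16.6% of the 32851 promoters in the table. The form that starts with T was in 5 of them, against 7.94% of all promoters, and the form that starts with A in Alas2 alone, against 9.99%. The CACCC box was found in 6 of the 7, against 52.0%, and 5 of the 7 held both kinds, against 7.11%. The promoters shown are all among these 5, while Gata1 held no GATA form and Hemgn no CACCC box. In Hba-x the GATA match began 108 bases before the start and the nearer CACCC box at 95 bases. In Klf1 they began at 80 and 114 bases. The Alas2 promoter held 3 CACCC boxes on the reverse strand, whose far ends lay 40, 35 and 30 bases before the start, clear of its GATA match at 86. The longer motif CCACNCCC, which can overlap that box, was in 2 of the 7 (Alas2 and Gata1), against 15.9%. CCAAT was in 3 of the 7 against 33.8%, and TATAA in 3 of the 7 against 22.8%. A match of letters is a description of the sequence and not a measured binding site.

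Signals are MAS 5.0 intensities on a linear scale, and a log2 ratio is knockout over wild-type. There was 1 array per genotype, so the genotype could not be tested, and "higher" and "lower" compare these 2 arrays only. A signal under the 40th percentile of its array, 41.2 for the wild-type and 41.8 for the knockout, was treated as not detected. The error given with a log2 ratio is a measurement SD, read from the disagreement of the 2 brightest probe sets of a gene, both detected on both arrays. The 2 need not be alike in signal. Over 5440 pairs split into 5 equal classes by the mean signal of the pair, the SD was 0.45, 0.37, 0.28, 0.24 and 0.15 from the dimmest to the brightest. For the 108 pairs with both signals of 10000 or more it was 0.076. Variation from embryo to embryo and from one RNA extraction to another is not in it.

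The embryonic globins differed by at most 1.30-fold between the arrays, while the other 6 genes had positive ratios, of which that of Klf1 alone reached 2-fold. Of the 15 probe sets, 14 were detected on both arrays, and 1 of Slc4a1 stayed below the floor, at 1.41 and 1.75. Of these 14, 12 ratios were positive and 2 negative, with a median log2 ratio of 0.26, against -0.05 over all 29201 detected probe sets. At least 2-fold higher was 1 of the 14, against 3.22% of all detected probe sets, and 0 were at least 2-fold lower, against 4.51%. After quantile normalization 11 of the 14 were positive and after loess 10, and the gap between their median and that of all probe sets went from 0.31 to 0.22 and 0.19. In such bulk tissue, a difference in the number of red cells and one in RNA per cell cannot be told apart.

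**Figure D1:**
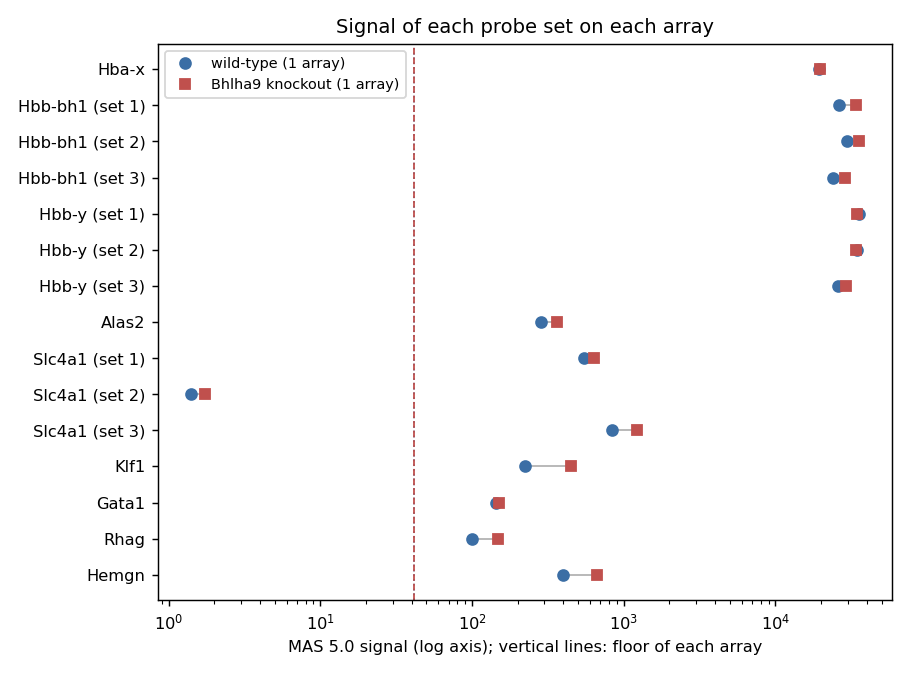
MAS 5.0 signal (horizontal log axis) of all 15 probe sets on the wild-type array (circles) and the knockout array (squares), with the floor of each array as vertical lines. The 7 globin probe sets lie between 19476 and 35543 on both arrays, and 1 Slc4a1 probe set lies under the floor.

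Hba-x, the embryonic zeta chain and a partner of the beta-like chains, read 19476 in the wild-type and 19639 in the knockout. Its log2 ratio of 0.01 was smaller than the measurement SD of 0.076, and it turned to -0.08 after quantile normalization and -0.16 after loess. Its 1 probe set has the plain suffix of a set designed for a single transcript.

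Hbb-bh1, a beta-like chain of primitive red cells, had 3 probe sets, each higher on the knockout array. They read 26110.0 and 33945, 29649.7 and 35543, and 23809 and 28604, wild-type first. The log2 ratios were 0.38, 0.26 and 0.26, so the knockout signals were 1.30-fold, 1.20-fold and 1.20-fold those of the wild-type. All of them exceeded the measurement SD of 0.076. Other probe sets of like brightness also ran upward on the knockout array. Of the 270 probe sets at least as bright as that of Hba-x, 82.2% had a positive ratio, with a median of 0.14, and 5, 35 and 32 of them had a ratio at least as high as the 3 of Hbb-bh1. After loess the ratios were 0.17, 0.04 and 0.07, still positive, but only the first exceeded that SD.

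Hbb-y, the epsilon-like chain, also had 3 probe sets, which did not share a direction. They read 35534 and 34648, 34403 and 33889.9, and 25769.8 and 29018, wild-type first. The log2 ratios were -0.04, -0.02 and 0.17. The first pair lay within the measurement SD, turned to 0.0047 and 0.02 after median centring, and was at -0.26 and -0.24 after loess, where the third was at -0.03. Direction for Hbb-y and Hba-x thus depended on the scaling, whereas that of Hbb-bh1 did not under median centring, quantile normalization or loess.

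The highest ratio of Hbb-y was below the lowest of Hbb-bh1, at 0.17 and 0.26. The genes are neighbours in RefSeq order on chromosome 7, and 3 of their 6 probe sets have names ending in _x_at, the mark of sets that can cross-hybridise with similar sequences. The other 3 end in _a_at, the mark of sets shared by transcripts of a gene. How far these probe sets read each other's transcripts was not tested. The highest non-control signals were 44958 and 45405 on the 2 arrays, so the globin signals lay near the top of the scale. None of the 270 probe sets of this brightness differed by 2-fold in either direction.

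**Figure D2:**
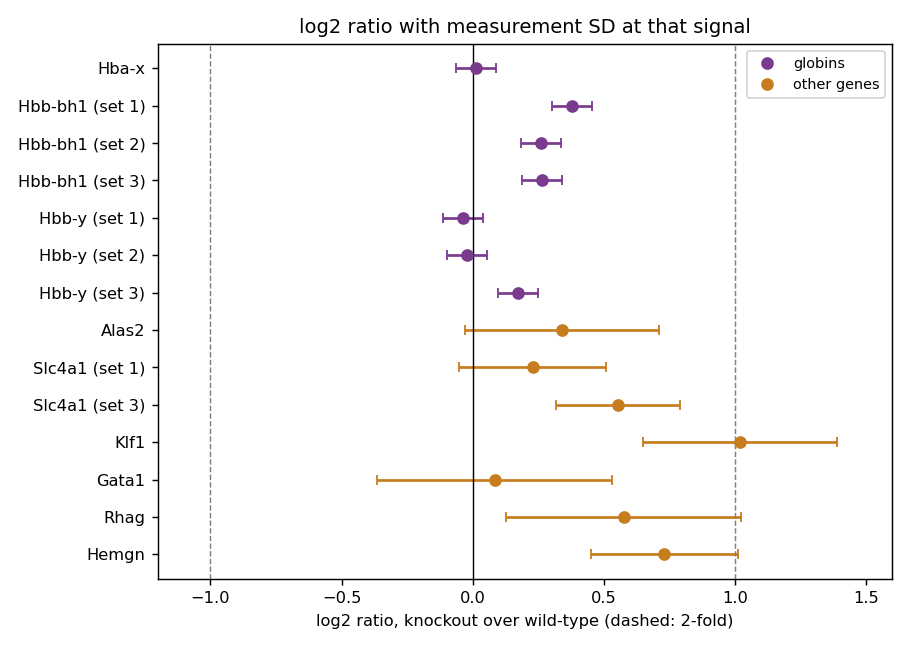
log2 ratio of knockout over wild-type (horizontal axis) for the 14 detected probe sets, with bars of 1 measurement SD at that signal and dashed lines at 2-fold. Klf1 stands at 1.02, the 7 globin probe sets lie between -0.04 and 0.38, and the signs of Hba-x and Hbb-y change with the scaling.

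Klf1 and Gata1, the transcription factors of the group, had 1 probe set each. Whether their ratios differ from each other was not tested. Klf1, whose product is known to bind CACCC boxes, read 222 in the wild-type and 451 in the knockout. Its ratio of 1.02 ± 0.37 (measurement SD) was a 2.03-fold difference. Of the 13016 detected probe sets in the signal range of Alas2, Slc4a1, Klf1, Gata1, Rhag and Hemgn, 2.83% were at least 2-fold higher and 5.19% at least 2-fold lower. With a pseudocount of 32 in place of the floor the Klf1 ratio was 0.92, under 2-fold. Gata1 read 143 and 152, a ratio of 0.08 ± 0.45 that was well within the measurement SD.

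Hemgn, a nuclear protein of blood progenitors and red cell precursors, read 399 and 662, a ratio of 0.73 ± 0.28 (measurement SD). Only Klf1 among the 9 genes had a higher ratio. Alas2, the red cell form of the enzyme that starts haem synthesis, read 285 and 361, a ratio of 0.34 ± 0.37. The Alas2 difference was within 1 measurement SD.

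The membrane proteins Slc4a1 and Rhag also read higher on the knockout array. Slc4a1, the anion exchanger band 3, had 2 detected probe sets, at 543 and 637 and at 838 and 1231, wild-type first. Their ratios were 0.23 ± 0.28 and 0.55 ± 0.24, the second of them from a probe set of the _x_at kind. Rhag, the Rh-associated ammonium channel, read 100.1 and 149, a ratio of 0.58 ± 0.45 not far above the floor. The 7 detected probe sets of the 6 genes other than globins were all positive, with a median of 0.55, and stayed positive under median centring, quantile normalization and loess. Over the 13016 probe sets of the same signal range 39.3% of ratios were positive and the median was -0.14.

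**Figure D3:**
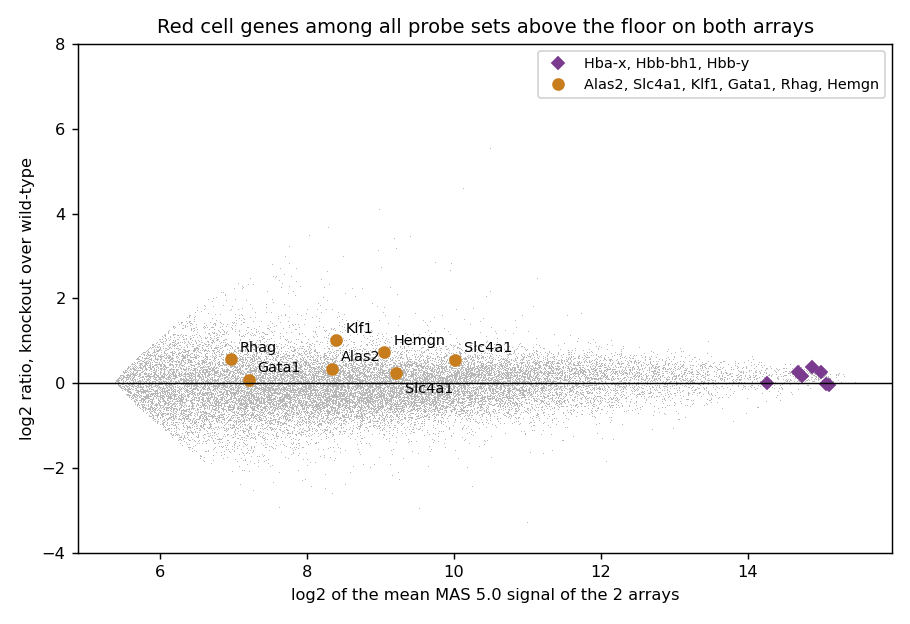
log2 ratio of knockout over wild-type (vertical axis) against log2 of the mean signal (horizontal axis) for all probe sets above the floor on both arrays (grey dots), with the globins as diamonds and the other 6 genes as circles. The spread narrows toward high signal, where all globin ratios lie between -0.04 and 0.38, and signs of Hba-x and Hbb-y change with the scaling.

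The wider red cell programme was read from 6 lists of further genes, arranged by role, each gene by its brightest probe set. Of 102 genes listed, 87 had a probe set of their own and 81 were detected. Past 2-fold upward were 6 of the 81, against 4.15% of all 13088 detected genes, and downward 1, against 2.65%. The median log2 ratio was 0.04, against 0.01 over all genes, and 45 ratios were positive. With the floor at the 60th percentile 3 of 62 were higher, and with it at the 20th percentile 4 of 86 were lower. Many of them, such as those of iron and haem metabolism, are also expressed outside red cells.

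Adult globins could hardly be read, since of the 10 genes listed, the globin chaperone Ahsp among them, 2 had a detected probe set of their own. Hba-a2, an adult alpha chain, was at 30.6 on the wild-type array, under the floor, and at 120.1 in the knockout, a bound of at least 2.92-fold. Hbb-b2, an adult beta chain, read 65.9 and 38.1, the latter under the floor. Probe sets that carry several globin symbols were not used, so the level of adult globin as a whole was not analysed here.

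Among 15 detected genes of haem synthesis and breakdown, 1 passed 2-fold upward and 1 downward, and the median was 0.15. Blvrb, a biliverdin reductase abundant in red cells, read 285 and 655, 2.30-fold higher. Alad, the enzyme that follows Alas2 in the pathway, read 2780 and 1215, 2.29-fold lower, and its dimmer probe set gave -1.22 as well. Breakdown and synthesis enzymes thus held the extremes of the list. Urod, a later enzyme of the pathway, had a ratio of 0.37, the haem oxygenase Hmox2 of 0.18 and the haem exporter Flvcr1 of 0.23.

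Of 11 detected genes of iron uptake and storage, 1 passed 2-fold upward and 0 downward, and the median was 0.01. The iron exporter Slc40a1 read 257 and 562, 2.19-fold higher, although its other probe set gave 0.37. Tfrc, the transferrin receptor through which red cell precursors take up iron, read 5292 and 6230, a ratio of 0.24. The ferritin chain Fth1 was at 0.01, the iron regulatory protein Aco1 at -0.08 and the sorting nexin Snx3 at -0.31.

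The membrane and skeleton list had 2 of 17 detected genes past 2-fold upward and 0 downward, and its median was 0.21. Epb42, which links band 3 to the skeleton, read 70.2 and 184, 2.62-fold higher, while its other probe set was not detected, at 3.68 and 5.28. With the floor at the 60th percentile Epb42 was not among the genes past 2-fold. Add2, a beta adducin also found in neurons, was under the floor in the wild-type by its brightest probe set, which differed by at least 2.09-fold, upward, while 2 of its other probe sets gave bounds of 0.50 and -0.12 and 2 were not detected. Cd24a was at 0.21, Mpp1 at -0.01, Cd47 at -0.0023 and the glycophorin Gypc at -0.36. Ermap, at 176 and 317, and Rhd, at 99.5 and 158, are membrane proteins of red cells, with ratios of 0.85 and 0.66. The lowest ratio of the list was -0.62, for Sptb, and 10 of the 17 ratios were positive and 7 negative. Ermap, Rhd and Sptb were named after their values were seen.

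None of the 15 further erythroid transcription factors passed 2-fold in either direction, and their median was -0.05, which turned to 0.0012 after quantile normalization and 0.02 after loess. The brightest were Bach1 (0.22), Klf3 (0.32), Nfe2l2 (-0.02) and the Gata1 partner Lmo2 (-0.11). Tal1, Nfe2 and Gfi1b, which act with Gata1 in red cells and were named after their values were seen, had ratios of 0.04, 0.32 and -0.62. The lowest ratios of the list were those of Ldb1 and Cbfa2t3, at -0.92 and -0.91, also named after their values were seen. All 15 ratios were lower than that of Klf1. Of genes named by their brightest probe set, Bach1, Klf3, Cd24a, Fth1, Dab2 and Prdx2 had at least 1 dimmer probe set of opposite sign. So did Add2, Myb and C1qb, whose other probe sets are given where they are named. Other probe sets were not looked at for Sptb, Ldb1, Cbfa2t3, Isg20, Lrp2, Foxa1, Apoa4 and Cubn. Nor were they for the genes next to the 9 red cell genes on the chromosome.

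In the list of red cell enzymes, receptors and maturation factors, 1 of 21 detected genes passed 2-fold upward and 0 downward, and the median was 0.07. Car2, a carbonic anhydrase of red cells and of other tissues, read 1098 and 2460, 2.24-fold higher. Car1 was under the floor on both arrays. The antioxidant enzymes Prdx2, Gpx1 and Cat had ratios of 0.43, 0.26 and -0.30, and the nuclear transport factor Xpo7 of -0.0042. The dimmer probe set of Prdx2 gave -3.30. Epor, the erythropoietin receptor, read 86.1 and 108, a ratio of 0.32. Trim10 and Smim1, both red cell genes, stood just under 2-fold at 0.99 and 0.95. The lowest ratio of the list was a bound of -0.59, for Isg20, and 13 of the 21 ratios were positive and 8 negative. Epor, Trim10, Smim1 and Isg20 were named after their values were seen.

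**Figure D4:**
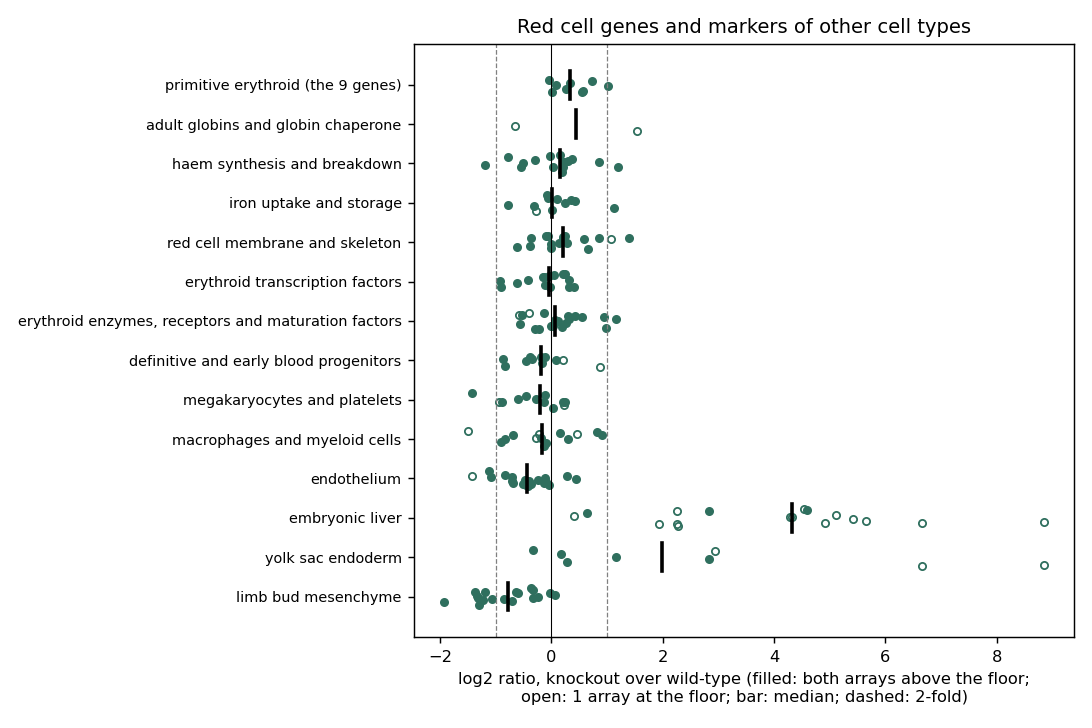
log2 ratio of knockout over wild-type (horizontal axis) for each detected gene of the 9 red cell genes, the 6 role lists and 7 lists of other cell types (rows), with bars at the medians. Open circles have 1 array at the floor. Liver genes reach 8.86, limb mesenchyme genes lie mostly below 0, and the sign of the median for erythroid transcription factors changes with the scaling.

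Markers of other cell types on the same arrays were set beside these values. The embryonic liver list had 15 of 17 detected genes past 2-fold upward and 0 downward, and its summed signal was 1944 in the wild-type and 39140.5 in the knockout. These sums, like those of the other cell type lists, add the unfloored signals of all list genes on the array, and without Dlk1 they were 447 and 36798. By the brightest probe set of each gene, the wild-type array was under the floor for 14 of the 17. That of Afp, a plasma protein of the fetus, read 17.7 and 19084, while another of its probe sets was detected in the wild-type, at 120 and 18222. Ttr read 5.23 and 4179, Apoa2 89.1 and 2139, and Dlk1 1497 and 2342. The fetal liver is the next site of red cell formation, and the part of this tissue in the red cell ratios was not tested. The yolk sac endoderm list, which shares Afp, Ttr and Rbp4 with it, had 5 of 8 detected genes past 2-fold upward and 0 downward, with sums of 1526 and 26550.0. Rbp4 had a ratio of 2.83 and Dab2 of 0.17. The 2 other genes past 2-fold were Lrp2, at 42.9 and 95.2, and Foxa1, at 21.2 and 314. Apoa4 and Cubn, named like Lrp2 and Foxa1 after their values were seen, were under the floor on both arrays.

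Markers of early and definitive blood progenitors had mostly negative ratios. Of 11 detected genes, 0 passed 2-fold in either direction, against 4.15% upward and 2.65% downward of all detected genes. Negative were 8 of the 11 ratios, and their median was -0.19, against 0.01 over all detected genes. Over the 13016 probe sets in the signal range of the 6 genes other than globins, the median was -0.14 and 39.3% of ratios were positive. The summed signals of the list were 14136 and 8731. Mecom alone gave most of these sums, which were 3108 and 2696 without it. Myb, needed for definitive but not primitive red cells, was at 355 and 311, and its other probe sets gave -0.41 and 0.19. Kit, the stem cell factor receptor, was at 612 and 467, Cd34 had a ratio of -0.16 and Mecom of -0.87. Of the 9 red cell genes, each by its brightest probe set, 8 ratios were positive and 1 negative. Those of Hba-x, Hbb-y, Gata1 and Alas2 were within 1 measurement SD.

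The lists of other blood cells and of vessels had negative medians. Those of the megakaryocyte and macrophage lists, -0.20 and -0.16, lay near the -0.14 of the 13016 probe sets named above. Of all detected genes, 4.15% passed 2-fold upward and 2.65% downward. Of 12 megakaryocyte and platelet genes, 0 passed 2-fold upward and 1 downward, with sums of 2752 and 2411, and Pf4, Clec1b, Ppbp and Itga2b had ratios of -0.27, 0.20, -0.11 and -0.45. Of 14 macrophage and myeloid genes, 0 passed upward and 1 downward, with sums of 1824 and 1547, and Csf1r, C1qb, Mrc1 and Tyrobp had ratios of -0.90, 0.81, 0.91 and 0.16, while the other probe sets of C1qb gave -0.45 and -0.11. Of 20 endothelial genes, 0 passed upward and 3 downward, with sums of 13294 and 10780. Kdr, a receptor of endothelial cells and their precursors, had a ratio of -1.09, Plvap of -0.37, Fli1 of -0.04 and Emcn of 0.44. The vessel list had a median of -0.44, while the 9 red cell genes, each by its brightest probe set, had one of 0.34, with sums of 86649 and 92836. That red cell sum is made up almost wholly of the globins.

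Limb bud mesenchyme markers, listed for the labelled tissue, were detected throughout, with 18 of 18 above the floor on both arrays. Of these, 8 passed 2-fold downward and 0 upward, with sums of 46583 and 27176. Prrx1, Lhx9, Shox2 and Msx1 had ratios of -0.33, -1.34, -1.31 and -1.37.

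The control probe sets also differed between the arrays. Probe sets for 18S ribosomal RNA read 3.54-fold to 5.17-fold more in the knockout. Those for the added poly-A control transcripts were lower on it, by a median log2 ratio of -1.13 over 24 probe sets, whereas the hybridisation controls had a median of 0.14. The 3′ to 5′ signal ratio was 0.92 in the wild-type and 0.85 in the knockout for Gapdh, and 1.45 and 1.88 for Actb. The part of these differences in the red cell ratios was not tested. Scaling the arrays to the poly-A controls moved the median of all probe sets from -0.05 to 1.10 and the median of the red cell probe sets to 1.41. The split of the role list genes went from 6 higher and 1 lower to 58 higher and 0 lower. Bhlha9 itself was not detected, at 7.87 and 1.70, and gives no check of the labels.

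**Figure D5:**
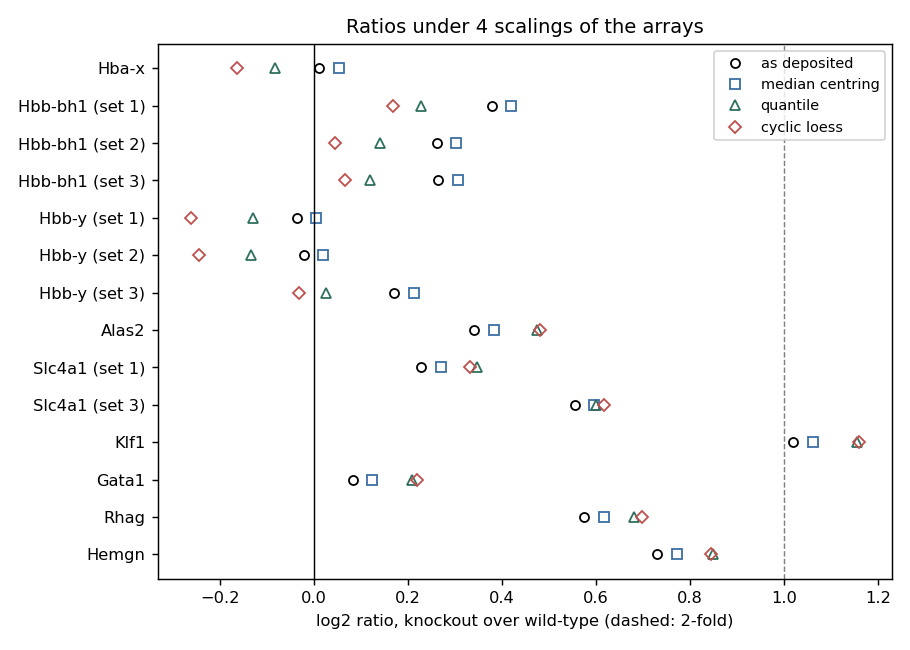
log2 ratio of knockout over wild-type (horizontal axis) for the 14 detected probe sets as deposited, after median centring, after quantile normalization and after cyclic loess. Klf1 lies at 1.02 or above in all 4, all Hbb-bh1 probe sets stay positive, and those of Hba-x and Hbb-y change sign.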

How the data were processed

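RNA from whole limb buds at E10.5 was hybridised to 1 array per genotype. Per the series' design text, the authors labelled 200 ng of total RNA and summarised the arrays by MAS 5.0, which gave the deposited linear intensities, 1 per probe set. The 2% trimmed mean was 500.0 on both arrays. Of 45101 probe sets, 64 controls were set aside and 34945 had 1 gene symbol in the platform annotation, of which 34741 matched RefSeq genes by identifier, 932 had several symbols and 9160 were unnamed here.

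Signals under the floor were raised to it, and a ratio with 1 array at the floor is a bound ("at least"). Genes named by rule were the 9 red cell genes, Bhlha9, the 4 brightest detected genes of each list and each role list gene past 2-fold. The text also names genes outside this rule. Some, such as Ermap, Trim10 and Uros, were named after their values were seen, and others lie next to the 9 on the chromosome. The genes and lists were chosen with earlier results of these data known. No p-value was computed, depth has no meaning for arrays, and their number limits the precision. Alternatives were other scalings, floors, probe set choices and thresholds. The steps were tested on simulated data. Python 3.11.15 with pandas 2.3.3, and R 4.3.3 with limma 3.58.1 for quantile and loess normalization, were used. Promoters came from RefSeq, and no coordinates were tied to probe sets.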

Additional observations from a re-analysis of the deposited data

How the results depend on the processing

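The number of red cell probe sets at least 2-fold higher was 1 (Klf1) under median centring, quantile normalization, loess, floors at the 20th and 60th percentile and with unique probe sets alone. It was 0 with a pseudocount of 32, 2 at 1.5-fold (Klf1 and Hemgn) and 0 at 3-fold. None was lower at any of these settings. Their median of 0.26 ranged from 0.19 with loess to 0.40 with unique probe sets, and 2 of the 14 probe sets had no value at the 60th percentile. The ratios of the 7 globin probe sets moved by up to 0.17 to 0.22, more than their measurement SD of 0.076, under quantile normalization and loess. Those of the other 7 moved by at most 0.14, less than their own SD, under the scalings, floors and pseudocount. For the role list genes, 6 were higher and 1 lower. The higher count went to 7 after median centring, to 8 after quantile normalization and loess, where Trim10 and Smim1 passed 2-fold, to 3 under a floor at the 60th percentile, 11 at 1.5-fold and 0 at 3-fold. The lower count went to 4 under a floor at the 20th percentile, 3 with the pseudocount, 9 at 1.5-fold, 0 at 3-fold and 2 with the mean over probe sets, which turned their median of 0.04 to -0.01. Their median rose to 0.15 after quantile normalization and 0.14 after loess. Scaling to the poly-A controls, which was added after seeing the data, gave 14 higher red cell probe sets with a median of 1.41, and 58 higher and 0 lower role list genes with a median of 1.18, because it moves every ratio upward. No paired analysis was possible because each genotype has 1 array. Low signals limit Rhag and Gata1, which lie in the fifth of signals with the largest measurement SD, and the globins lie near the top of the scale.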

Other observations

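Genes next to the 9 red cell genes on the chromosome were also read. Of 32 protein-coding genes within 2 places on either side in RefSeq order, 23 had a probe set of their own and 17 were detected. None of the 17 passed 2-fold, against 4.15% upward and 2.65% downward of all detected genes. The 17 ratios ran from -0.82 for Nprl3, which neighbours Hba-x, to 0.62 for Tmem29, which neighbours Alas2. Their median was -0.28. The genes on either side of Klf1, Gcdh and Dnase2a, had ratios of -0.33 and -0.55, while Klf1 was at 1.02. Anp32b and Trmo, on either side of Hemgn, had ratios of -0.36 and 0.19. The olfactory receptor genes Olfr66 and Olfr64, beside Hbb-y, were under the floor on both arrays.

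The probe sets of Prdx2, an abundant red cell antioxidant enzyme, did not share a direction. The brighter read 14775 and 19865, wild-type first, and the other read 3699 and 376, 9.85-fold lower on the knockout array. Uros, an enzyme of haem synthesis named here after its values were seen, stood at 0.86 and 1.01 in its pair of probe sets, opposite to Alad at -1.19 and -1.22. The Uros probe set at 1.01 read 43.1 in the wild-type, just above the floor of 41.2, and 87.0 in the knockout.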
